A study of Homo sapiens with 8 samples.

Results

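A set of 29 genes of cholesterol synthesis, uptake and export was followed through the RNA-seq of SW1990, an established human pancreatic adenocarcinoma cell line. The genes were listed by name from their known roles. The list was made with earlier results of these data known, so the shares of members called describe it and are no blind test. All 29 genes were found among the 38637 genes of the table. They comprise 8 enzymes of the mevalonate stage, 12 enzymes from squalene to cholesterol, 5 genes of the sterol sensor (INSIG1, INSIG2, SREBF1, SREBF2 and SCAP) and 4 genes of sterol transport, uptake and export (STARD4, MYLIP, ABCA1 and ABCG1). The 8 libraries formed 4 groups of 2. Vector cells carried an empty vector and EBF2-OE cells an EBF2 overexpression construct, EBF2 being a transcription factor of the helix-loop-helix family. Vehicle cells received the solvent control and GSK-LSD1 cells an inhibitor of the histone demethylase KDM1A (LSD1), at a dose that the titles give as 2000 µM. That dose is far above those the study describes for its protein assays, so its unit is uncertain. Libraries are numbered 2 and 3 in Vector and EBF2-OE but 1 and 2 in Vehicle and GSK-LSD1. Nothing states what the numbers stand for or whether libraries came from separate cultures, so the p-values measure only the spread between these libraries.

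Cholesterol is built from acetyl-CoA through mevalonate, the isoprenoids and squalene. The genes of the route share a sensor in the endoplasmic reticulum. When membrane sterol is low, SCAP carries the SREBP transcription factors (encoded by SREBF1 and SREBF2) to the Golgi, where they are cut and released to the nucleus. When sterol is high, INSIG proteins hold SCAP back. Sterol excess also activates the LXR receptors, which switch on the exporters ABCA1 and ABCG1 and the ubiquitin ligase MYLIP, which degrades lipoprotein receptors. SREBP binds sterol regulatory elements in promoters, commonly next to a CCAAT box, which binds NF-Y, or a GC box, which binds Sp1.

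Promoters from RefSeq (GRCh38.p14, 250 bases before to 50 bases after each start) were matched for 25 of the 29 genes. Both strands were searched for 4 motifs: the sterol regulatory element core TCACNCC, the CCAAT box, the GC box with letters GGGCGG, and the E box with letters CACGTG. Matches of different motifs did not overlap in the members' promoters, but matches of the same motif did in IDI1, NSDHL, INSIG1 and SREBF2. TCACNCC was present in 7 of the 25 members (28.0%) and in 18.2% of all 27305 genes with a promoter. The windows of members that hold it and that passed both limits in a comparison described further on are given on the gene's strand, with the motif in capitals. The window of SREBF2, which encodes the SREBP that acts mainly on cholesterol genes, was added after its values were seen. They lie at chr5:43313374-43313403 (HMGCS1), chr10:1056695-1056724 (IDI1), chr4:165327419-165327448 and chr4:165327502-165327531 (MSMO1), chr12:109573588-109573617 (MVK) and chr22:41832961-41832990 (SREBF2).
HMGCS1: cctttcgtggcTCACTCCctttcctctgct
IDI1: ggcgccggaagTCACGCCccggcttccgcc
MSMO1, first match: ccgcccccTCACGCCgtggcgcgctctcac
MSMO1, second match: tctcactatccTCACTCCatccgcggagcc
MVK: gttcgcagttcTCACCCCagggcgggacac
SREBF2: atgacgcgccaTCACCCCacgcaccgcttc

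The HMGCS1 match stood at offset -211 from 1 annotated start and at offset 20 from another. CCAAT was present in 18 of 25 members (72.0%) against 39.7% of all genes, and GGGCGG in 23 (92.0%) against 48.3%. CACGTG was present in 5 members (ABCA1, INSIG1, LSS, SC5D and SCAP; 20%) against 8.77% of all genes. These matches describe the letters in the windows, and binding was not measured.

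The libraries held 20453362 to 27054876 counts on genes. The targeted gene EBF2 had 5818 counts in EBF2-OE 2 and 90100 in EBF2-OE 3, and 24 to 40 counts in the 6 other libraries, so the overexpressing libraries differed widely in transgene level and EBF2 itself was not called (log2 fold change 10.75 ± 1.55 SE, adjusted p = 0.9998). KDM1A fell slightly with GSK-LSD1 (log2 fold change -0.22 ± 0.06 SE, adjusted p = 0.0403), which does not report on its enzyme activity. Of the 8 epithelial markers, KRT8 had at least 39585 counts in every library. Mean counts per group were 20242 to 47501 for KRT18, 12428.5 to 22940 for KRT7 and 5076.5 to 5515.5 for MUC1. In contrast, KRT19 had 0 to 21 counts, EPCAM 4 to 20 and CDH1 7 to 57, and the group means of CEACAM6 were at most 1.5. The 5 acinar and islet markers (such as PRSS1 and INS) reached at most 1 count, and of the 5 leukocyte markers CD3E, CD79A and PTPRC reached at most 10, LYZ 51 and CD68 405. Of the 6 fibroblast markers LUM had 3 to 10 counts and COL1A1 1419 to 2299. Levels are given as CPM (counts scaled to a common total with TMM over the 8 libraries) between libraries, and as TPM, which also divides by gene length, between genes. In bulk RNA, fewer cells with a transcript cannot be told apart from less of it per cell.

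Levels of the 29 genes spanned a wide range in Vehicle. FDPS, which makes farnesyl diphosphate, was highest per length (mean 324 TPM), followed by EBP, a sterol isomerase (209 TPM), and DHCR7, which makes cholesterol from its direct precursor (181 TPM). The exporters were lowest, with ABCG1 at 5.86 TPM and ABCA1 at 1.91 TPM. The 20 enzymes together took 1620 ± 26.4 TPM in Vehicle (SD, n = 2), 2826 ± 23.4 in GSK-LSD1, 2709 ± 71.0 in Vector and 2770 ± 149 in EBF2-OE. The Vehicle libraries (1601 and 1638) lay below the 6 others, whose lowest was Vector 2 at 2658.

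The comparison of GSK-LSD1 with Vehicle asked how the treatment changed the pathway. Of the 29 genes, 22 were significantly higher after GSK-LSD1 and 0 lower at an adjusted p under 0.05 (edgeR's quasi-likelihood test, Benjamini-Hochberg over 16059 genes), where 9.86% of all genes tested were higher and 8.87% lower. With the study's further limit of a fold change above 1.5, 18 of 29 members were higher, against 2.53% of all genes. The median log2 fold change was 0.79 over the members and -0.01 over all genes tested. In 26 of 29 members both treated libraries lay above both controls, as they did for 30% of all genes; LBR, SCAP and SREBF1 overlapped. Marker sums moved as well: from Vehicle to GSK-LSD1 the epithelial sum went from 7119 to 7231 TPM to 5318 to 5360 TPM, the leukocyte sum from 11.8 to 14.7 TPM to 19.4 to 21.1 TPM and the endothelial sum from 4.88 to 5.02 TPM to 2.63 to 2.79 TPM, while the fibroblast sum was 57.7 to 58.7 TPM and 62.6 to 65.2 TPM. Few genes held most of each sum: CD68 of the leukocyte sum (mean 12.1 TPM in Vehicle and 17.4 in GSK-LSD1) and CDH5 of the endothelial sum (4.27 and 2.13 TPM). KRT8 and KRT18 held most of the epithelial sum. The sums therefore do not report the share of a cell type. The part of these shifts in the members' values was not tested.

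All 8 mevalonate-stage genes rose. HMGCS1, which condenses acetoacetyl-CoA with acetyl-CoA, lies on chromosome 5 (hg38, 43287470 to 43313477, minus strand). It had 105 and 112 CPM in the Vehicle libraries and 331 and 299 CPM in the GSK-LSD1 libraries. The groups were far apart, with a log2 fold change of 1.53 ± 0.06 (SE, adjusted p = 3.03e-07) and rank 6 of 16059 genes by p. IDI1, which isomerizes the isoprenoid unit, had 51.0 and 51.6 CPM in Vehicle and 125 and 114 CPM in GSK-LSD1 (log2 fold change 1.22 ± 0.06).

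MVK, the kinase of mevalonate, had 34.8 and 35.5 CPM in Vehicle and 64.7 and 64.8 CPM after treatment. ACAT2, the thiolase that makes acetoacetyl-CoA, had 86.9 and 83.8 CPM against 163 and 159. Replicates of both genes lay close together and the groups well apart (log2 fold changes 0.88 ± 0.06 and 0.91 ± 0.05). MVD, a decarboxylase, and FDPS rose by log2 fold changes of 0.79 ± 0.06 and 0.77 ± 0.05. GGPS1, which makes geranylgeranyl diphosphate for protein prenylation, and PMVK, the kinase of phosphomevalonate, passed the test under a fold of 1.5 (0.40 ± 0.07 and 0.25 ± 0.07 on the log2 scale, adjusted p = 0.00267 and 0.0345). No strand setting for counting is stated, and ACAT2 overlaps TCP1 by 615 bases, IDI1 overlaps IDI2-AS1 by 5050 bases and FDPS overlaps RUSC1-AS1 by 3812 bases on the opposite strand. IDI2-AS1 itself had at most 68 counts and RUSC1-AS1 at most 1191, whereas TCP1 had 4547 to 6930 against 2169 to 4772 for ACAT2.

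Of the 12 enzymes from squalene to cholesterol, 11 rose and 10 of these exceeded a fold of 1.5. TM7SF2, a sterol reductase of the endoplasmic reticulum (chromosome 11, hg38, 65111872 to 65116230, plus strand), had 190 and 194 counts in the Vehicle libraries and 569 and 473 in the GSK-LSD1 libraries. Its log2 fold change of 1.63 ± 0.12 (adjusted p = 1.51e-05) was the largest of the 29 genes. LBR, a protein of the inner nuclear membrane with the same reductase activity, had 55.2 and 52.5 CPM in Vehicle and 57.3 and 52.6 CPM in GSK-LSD1, groups that overlapped (log2 fold change 0.03 ± 0.07, adjusted p = 0.830). MSMO1, a sterol methyl oxidase, had 27.2 and 29.1 CPM against 67.1 and 70.1 CPM (1.28 ± 0.07 on the log2 scale). SQLE, the epoxidase of squalene, had 57.1 and 54.3 CPM against 117 and 124 CPM (1.11 ± 0.06 on the log2 scale).

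HSD17B7, a sterol ketoreductase, had 17.9 and 20.5 CPM in Vehicle and 41.5 and 36.2 CPM in GSK-LSD1 (log2 fold change 1.01 ± 0.10). Its pseudogene copy HSD17B7P2 had 36 to 92 counts against 446 to 957 for HSD17B7, so reads could be split between them. DHCR7, FDFT1 (squalene synthase), LSS (lanosterol synthase) and CYP51A1 (lanosterol demethylase) rose by log2 fold changes of 0.96, 0.91, 0.88 and 0.80, with an SE of 0.05 to 0.06 each. EBP and SC5D, a desaturase, had log2 fold changes of 0.68 ± 0.05 and 0.67 ± 0.09. NSDHL, a decarboxylating dehydrogenase, rose less (0.37 ± 0.06, adjusted p = 0.00233).

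The sensor genes did not move as a block. INSIG1, itself a target of SREBP, had 95.2 and 76.7 CPM in Vehicle and 161 and 168 CPM in GSK-LSD1, without overlap (log2 fold change 0.94 ± 0.08, adjusted p = 5.29e-05). INSIG2, its paralog, had 36.7 and 37.6 CPM in Vehicle and 39.5 and 39.3 CPM in GSK-LSD1 (0.08 ± 0.07, adjusted p = 0.436). SREBF2 had 288 and 278 CPM against 309 and 331 CPM, a small rise that passed (0.17 ± 0.05, adjusted p = 0.0401) but not in DESeq2 (adjusted p = 0.0506). SREBF1, whose product acts more on fatty acid genes, had 362 and 297 CPM in Vehicle and 356 and 386 CPM in GSK-LSD1, with overlapping libraries (0.17 ± 0.08, adjusted p = 0.175). SCAP had 142 and 132 CPM against 128 and 139 CPM (-0.04 ± 0.06, adjusted p = 0.669).

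Of the transport genes, STARD4, which moves cholesterol between membranes, rose from 22.9 and 23.9 CPM to 42.0 and 44.9 CPM (log2 fold change 0.89 ± 0.07, adjusted p = 3.59e-05). STARD4 overlaps CAMK4, on the opposite strand, by 7082 bases, and CAMK4 had 249 to 424 counts against 572 to 1319 for STARD4. The exporters and MYLIP did not pass. ABCG1 had 28.8 and 22.5 CPM in Vehicle and 29.4 and 34.9 CPM in GSK-LSD1 (0.32 ± 0.12, adjusted p = 0.0846). Its log2 fold change lay between 0.15 and 0.51 when 1 library was left out, and ABCG1 passed without Vehicle 1 (adjusted p = 0.000224) and without the low-count filter. ABCA1 had 7.65 and 7.48 CPM against 8.42 and 9.09 CPM (0.21 ± 0.12, adjusted p = 0.269). MYLIP had 11.8 and 11.7 CPM against 13.1 and 13.3 CPM (0.16 ± 0.10, adjusted p = 0.304).

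With 1 fit over all 8 libraries the spread was estimated jointly with the Vector and EBF2-OE pairs. The biological coefficient of variation was 13.5%, against 5.87% for Vehicle and GSK-LSD1 alone and 19.0% for Vector and EBF2-OE alone. In the joint fit 0.598% of 16558 genes were higher after GSK-LSD1. The members still held 16 of those 99 genes: HMGCS1, MVK, IDI1, FDPS, ACAT2, FDFT1, SQLE, LSS, CYP51A1, TM7SF2, MSMO1, HSD17B7, EBP, DHCR7, INSIG1 and STARD4. MVD, SC5D, GGPS1, NSDHL, PMVK and SREBF2 did not pass in that fit (adjusted p = 0.0753 for SC5D to 0.402 for SREBF2). Leaving out 1 of the 4 libraries of this comparison kept the members' median log2 fold change between 0.77 and 0.80. Of the 15 members with both limits passed and a promoter entry, 4 held TCACNCC (26.7%), 14 held CCAAT (93.3%) and 15 held GGGCGG. The shares were 28.0%, 72.0% and 92.0% of the 25 members, and 18.2%, 39.7% and 48.3% of all genes with a promoter. A link of motif and response was not tested. In CYP51A1 CCAAT was not matched.

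Genes of the pathway outside the 29 were read from 5 further lists holding 79 genes. Of the 75 tested, 23 rose and 3 fell with GSK-LSD1, with a median log2 fold change of 0.13, against 9.86% higher and 8.87% lower of all genes. Counts as small as those of the isoprenoid and processing lists are near that share and are given as a description. Fatty acid genes driven by SREBP made up the largest share, with 10 of 15 higher and 0 lower. Among them ACSS2, which makes acetyl-CoA from acetate, rose by 1.5 ± 0.06 on the log2 scale (adjusted p = 3.27e-07), SCD, the stearoyl-CoA desaturase, by 1.22 ± 0.04, and FASN, the fatty acid synthase, by 0.93 ± 0.07. Of 13 tested LXR and oxysterol genes, 5 rose and 1 fell; SULT2B1, a sterol sulfotransferase, had a log2 fold change of 0.98 ± 0.26, ABCG2, an efflux pump, 0.89 ± 0.19, and EEPD1, which has a role in cholesterol efflux, 0.85 ± 0.14. Of 17 tested genes of sterol trafficking and esterification, 4 rose and 1 fell, led by NPC2, the lysosomal cholesterol carrier (0.62 ± 0.05), with LIPA, the lysosomal lipase, at 0.48 ± 0.06 and CAV1, a caveolar coat protein, at -0.47 ± 0.08. Of 16 genes of SREBP processing and sterol-driven degradation, 3 rose, namely the COPII coat genes SEC24D (0.50 ± 0.08), SEC23A (0.28 ± 0.07) and SEC24C (0.19 ± 0.05). Of 14 genes of the isoprenoid branch, 1 rose (DHDDS, of dolichol synthesis, 0.25 ± 0.08) and 1 fell (RCE1, a protease of prenylated proteins, -0.31 ± 0.09).

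The comparison of EBF2-OE with Vector asked how EBF2 overexpression changed the same genes. None of the 29 was called, as 0% of the 15560 genes tested in edgeR passed the adjusted p. At an unadjusted p under 0.05, 0 members passed, against 1.34% of all genes (208), and DESeq2 called 6 genes higher and 1 lower, of which 0 were members. The median log2 fold change of the members was 0.08, with 23 above 0 and 6 below, and it was -0.049 when EBF2-OE 3 was left out. Both EBF2-OE libraries lay above both Vector libraries for 5 of 29 members, against 12.1% of all genes.

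Those 5 members were FDPS, HSD17B7, INSIG1, MSMO1 and SREBF2. In each comparison, overlap was read with CPM scaled over the 4 libraries compared. On the scale over all 8 libraries SREBF2 overlapped, with means of 260 ± 9.16 CPM in Vector and 274 ± 12.4 CPM in EBF2-OE (SD). HSD17B7 had 31.8 and 32.8 CPM in Vector and 36.2 and 42.3 CPM in EBF2-OE (log2 fold change 0.29 ± 0.14, unadjusted p = 0.0929). MSMO1 had 52.2 and 51.1 CPM against 62.9 and 59.4 CPM (0.25 ± 0.12, unadjusted p = 0.0760). INSIG1 had 98.8 and 98.7 CPM against 107 and 122 CPM (0.22 ± 0.13). Every member's adjusted p was 0.9998.

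For several members the EBF2-OE libraries lay far from each other. HMGCS1 had 246 CPM in EBF2-OE 2 and 408 CPM in EBF2-OE 3, against 252 and 320.1 CPM in the Vector libraries. SREBF1 had 236 and 382 CPM against 249 and 267 CPM, and MYLIP 9.49 and 18.5 CPM against 12.7 and 17.3 CPM. INSIG2 went the other way, with 52.1 and 30.4 CPM against 46.2 and 31.5 CPM. EBF2-OE 3 is also the library with more EBF2 counts, and Vector 3 was likewise higher than Vector 2 in HMGCS1 and MYLIP and lower in INSIG2. The part of the transgene level and of the library number in these differences was not tested. With an SE of 0.11 to 0.34 on the log2 scale, changes of the size seen for PMVK with GSK-LSD1 were not detectable here. Larger changes could also go uncalled where the libraries of a group lie far apart, as for EBF2, which was not called despite its far higher counts in EBF2-OE. The lack of calls therefore does not show that the members were unchanged.

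**Figure D1:**
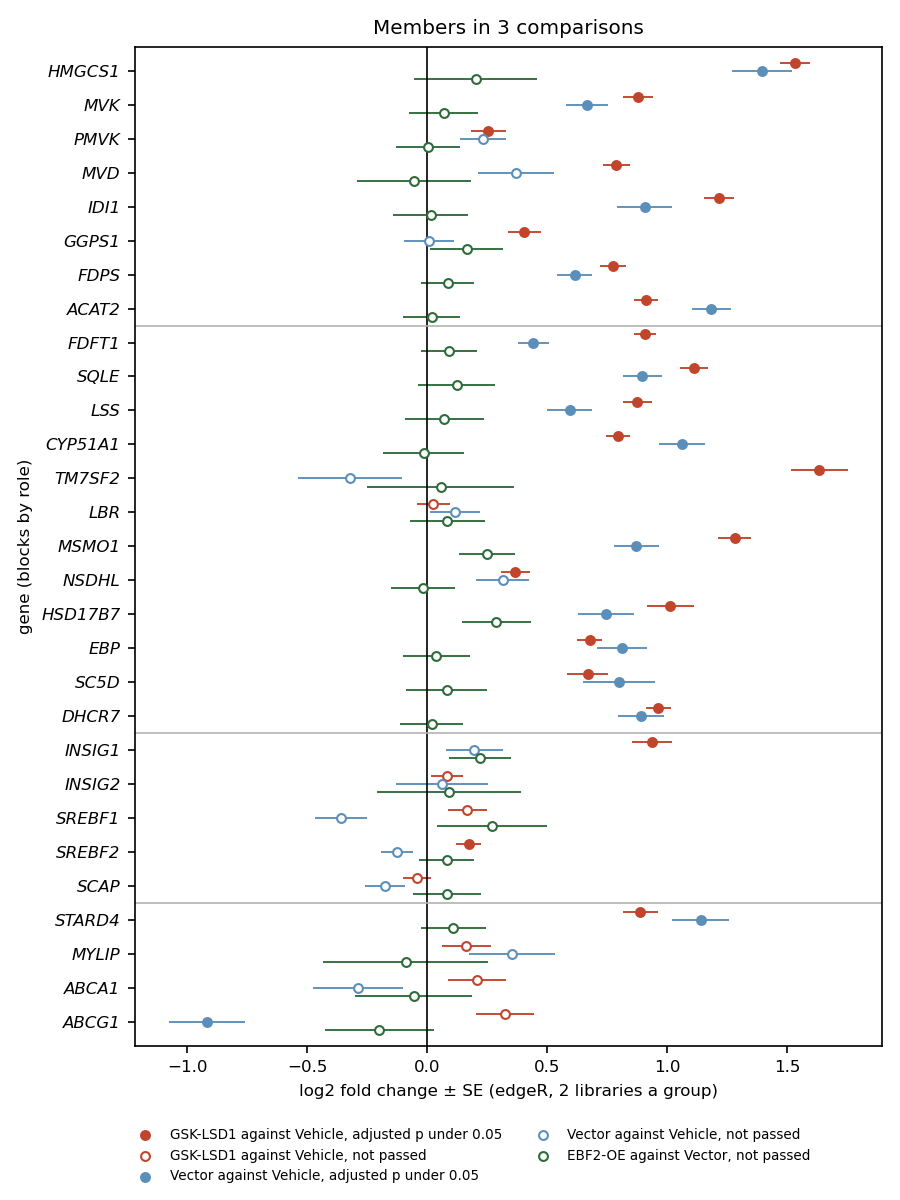
Log2 fold change (x axis) with its SE (bars) for the 29 genes (y axis, in blocks by role) in 3 comparisons; filled points passed an adjusted p under 0.05 in edgeR. The GSK-LSD1 points are filled for 22 genes, the Vector against Vehicle points for 16 (ABCG1 to the left of 0), and the EBF2-OE points for 0.

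Vector against Vehicle compared the 2 sets of control cells. The empty vector, the solvent and any other difference between these sets cannot be told apart. The comparison shares its libraries with both comparisons above, so its values are not independent of theirs. In Vector 15 members were higher and 1 was lower (edgeR, 16019 genes), where 13.6% of all genes were higher and 13.2% lower; with the fold limit 14 were higher and 1 lower, against 5.79% and 10.2%. Vector lay above Vehicle without overlap in 20 members and below it in 6, against 35.6% and 35.3% of all genes. The members' median log2 fold change was 0.44. When 1 library was left out, its group held 1 library and the spread came from the other pair alone, so calls were not compared. The biological coefficient of variation was 18.3% with 1 Vehicle library, 6.56% with 1 Vector library and 13.1% with all 4. The members called with all 4 libraries kept their direction when 1 library was left out. Their log2 fold changes were, for example, 1.22 to 1.55 for HMGCS1, 1.12 to 1.25 for ACAT2 and 1.01 to 1.26 for STARD4. Members not called were less stable: MVD lay between 0.13 and 0.59, and GGPS1 (-0.09 to 0.11) and INSIG2 (-0.25 to 0.32) changed sign.

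The members higher in Vector were again mostly enzymes. HMGCS1 had 252 and 320.1 CPM in Vector against 105 and 112 CPM in Vehicle (log2 fold change 1.39 ± 0.12, adjusted p = 0.00693). ACAT2 had 184 and 204 CPM against 86.9 and 83.8 CPM (1.18 ± 0.08), and STARD4 46.9 and 56.5 CPM against 22.9 and 23.9 CPM (1.14 ± 0.12). CYP51A1 had 171 and 199.6 CPM against 87.1 and 89.9 CPM (1.06 ± 0.10). The other higher members were IDI1, SQLE, DHCR7, MSMO1, EBP, SC5D, HSD17B7, MVK, FDPS, LSS and FDFT1, with log2 fold changes from 0.44 (FDFT1) to 0.91 (IDI1). ABCG1 was lower, with 14.0 and 13.2 CPM in Vector against 28.8 and 22.5 CPM in Vehicle (-0.92 ± 0.16, adjusted p = 0.0160).

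TM7SF2, 5 other enzymes and the sensor genes did not pass between the controls in edgeR. Of these enzymes, MVD, NSDHL and PMVK leaned higher in Vector (log2 fold changes 0.37 ± 0.16, 0.31 ± 0.11 and 0.23 ± 0.10). GGPS1 and LBR lay nearer 0 (0.01 ± 0.11 and 0.12 ± 0.11). TM7SF2 had 4.87 and 6.85 CPM in Vector against 7.61 and 7.01 CPM in Vehicle (log2 fold change -0.32 ± 0.22, adjusted p = 0.301). INSIG1 had 98.8 and 98.7 CPM against 95.2 and 76.7 CPM (0.20 ± 0.12, adjusted p = 0.258). SREBF1 had 249 and 267 CPM against 362 and 297 CPM (-0.36 ± 0.11, adjusted p = 0.0613), and DESeq2 called it lower (adjusted p = 0.0426). SREBF2 and SCAP had log2 fold changes of -0.13 ± 0.07 and -0.17 ± 0.08 and did not pass.

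Of the 75 other pathway genes tested between the controls, 19 were higher and 5 lower in Vector, against 13.6% and 13.2% of all genes. The counts of the single lists are small, and are given as a description. SCD (1.04 ± 0.07 on the log2 scale), ACSS2 (0.71 ± 0.10) and STARD10, a lipid carrier (-1.11 ± 0.15), led the 5 higher and 1 lower of 15 fatty acid genes. SULT2B1 (-2.17 ± 0.41), the heme receptor NR1D1 (1.56 ± 0.11) and EEPD1 (0.77 ± 0.20) led the 2 higher and 3 lower of 13 LXR and oxysterol genes. ZMPSTE24, a protease of prenylated proteins (0.88 ± 0.12), PDSS1, of ubiquinone synthesis (0.83 ± 0.15), and RABGGTB, of Rab prenylation (0.76 ± 0.16), led 4 higher of 14 isoprenoid genes. GRAMD1B, a sterol carrier (0.76 ± 0.08), and the lipoprotein receptors SCARB1 (0.58 ± 0.08) and LRP8 (0.55 ± 0.10) led the 4 higher and 1 lower of 17 trafficking genes. RNF139 (0.53 ± 0.12) and PAQR3 (0.50 ± 0.13), both regulators of the sensor, and SEC23A (0.44 ± 0.09) led 4 higher of 16 processing genes. Marker levels also differed between the controls: the 3 endothelial markers summed to 4.88 and 5.02 TPM in Vehicle and 0.717 and 0.798 TPM in Vector, and the 5 leukocyte markers to 11.8 to 14.7 TPM in Vehicle and 22.5 to 26.9 TPM in Vector. The 8 epithelial markers summed to 7119 to 7231 TPM in Vehicle and 4622 to 4952 TPM in Vector. Here too CD68 held most of the leukocyte sum (mean 12.1 TPM in Vehicle and 23.9 in Vector) and CDH5 most of the endothelial sum (4.27 and 0.50 TPM). KRT8 and KRT18 held most of the epithelial sum. The part of these differences in the members' values was not tested.

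Read over all 8 libraries, 18 of 29 members had both Vehicle libraries below the 6 others, against 13.7% of the 16558 genes kept. These were 16 of the enzymes, INSIG1 and STARD4. Both GSK-LSD1 libraries lay above the 6 others for 12 members, against 10% of all genes: ABCA1, ABCG1, FDFT1, FDPS, GGPS1, IDI1, INSIG1, MSMO1, MVD, MVK, SREBF2 and TM7SF2. For ACAT2, CYP51A1 and STARD4 the GSK-LSD1 libraries lay below both Vector libraries. Relative to the Vehicle mean, the median of the members was 0.80 and 0.77 on the log2 scale in the GSK-LSD1 libraries, 0.50 and 0.54 in the Vector libraries and 0.48 and 0.64 in the EBF2-OE libraries. The same median over all genes lay within 0.005 of 0 in every library.

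**Figure D2:**
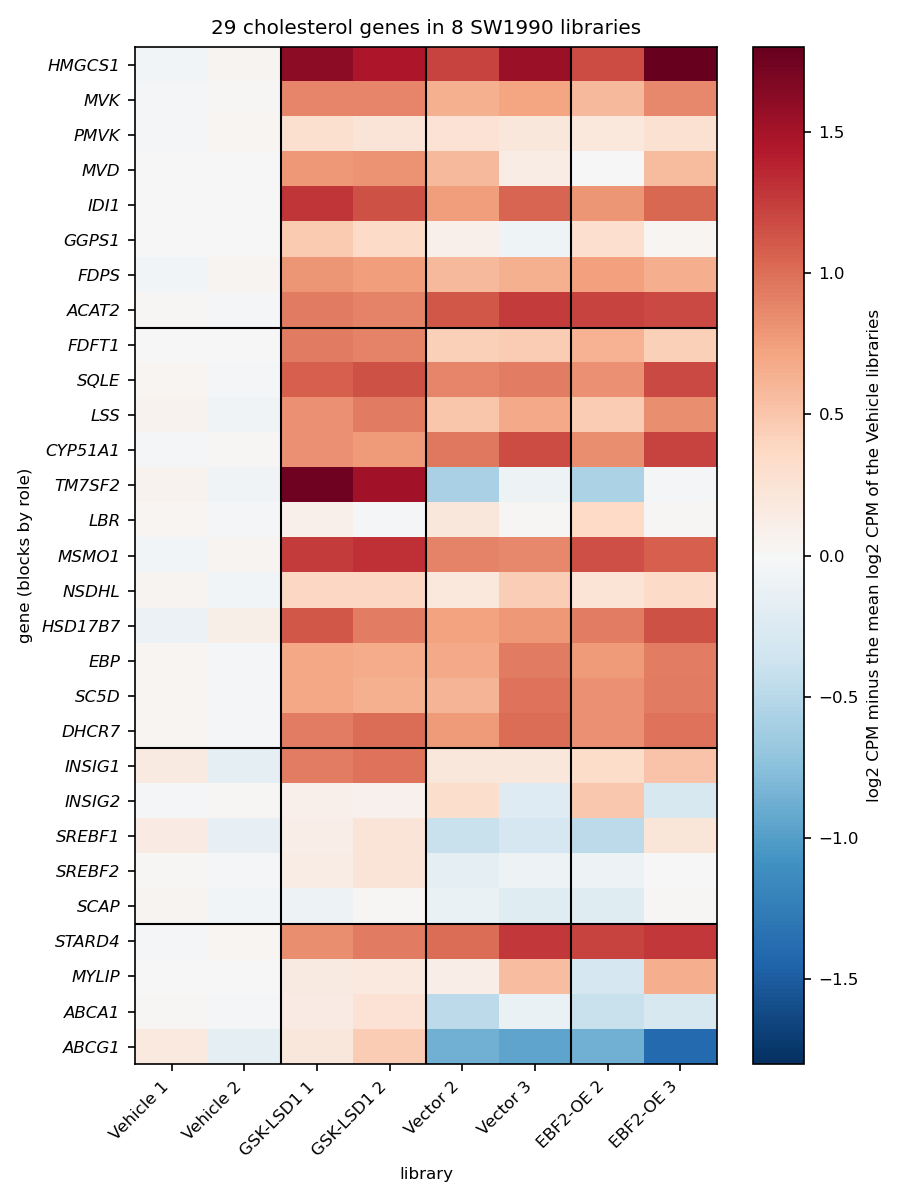
Log2 CPM of the 29 genes (rows, in blocks by role) in the 8 libraries (columns), minus the mean of the Vehicle libraries; red is higher and blue lower. Most enzyme rows are red in all 6 other libraries, TM7SF2 is red in GSK-LSD1 alone, and ABCG1 is blue in Vector and EBF2-OE.

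Whether the EBF2-OE and GSK-LSD1 effects differed was tested as an interaction over all 8 libraries. No member passed, as 0% of 16558 genes did in edgeR; the members' smallest adjusted p was 0.0751, for ACAT2 and MSMO1. At an unadjusted p under 0.05, 19 of 29 members had a smaller effect of EBF2-OE, against 7.66% of all genes in either direction. The median difference was -0.73 on the log2 scale over the members. The call depended on the tool: DESeq2 called 14 members (HMGCS1, MVK, IDI1, FDPS, ACAT2, FDFT1, SQLE, LSS, CYP51A1, TM7SF2, MSMO1, DHCR7, INSIG1 and STARD4), all with a difference below 0. Of the 27234 genes in that fit, DESeq2 called 56 with a difference below 0 and 38 above 0. TM7SF2 showed the largest difference (-1.59 ± 0.32), and LBR (0.05 ± 0.18), INSIG2 (0.00 ± 0.35) and SREBF1 (0.09 ± 0.28) lay near 0.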

How the data were processed

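RNA-seq was made from 8 SW1990 libraries (2 per group). According to the study's methods, the authors enriched poly(A) RNA, filtered the reads, aligned them to hg38 with HISAT2 at default parameters and counted them per gene with HTSeq; the versions and strand setting are not given in the sources used here. The deposited raw counts were used for all tests. The deposited TPM values are the counts divided by the listed gene length and rescaled to the same total in every library.

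Counts were tested with edgeR 4.0.16 (R 4.3.3): filterByExpr with a minimum count of 10, TMM scaling, the quasi-likelihood test and Benjamini-Hochberg adjustment over all genes tested, each comparison on its own 4 libraries and the interaction on all 8. The threshold was an adjusted p under 0.05, with a fold limit of 1.5 as a second rule. SE is the log2 fold change divided by the root of F. Alternatives were DESeq2 1.42.0, its size factors, limma 3.58.1 on log2(CPM + 1), 2 other filters, 1 fit over all 8 libraries, a replicate block and leaving out each library. Totals of 20453362 to 27054876 counts limit the precision for genes at the level of ABCA1. The members and further lists were chosen with earlier results of these data known. Named genes are the 29 members, EBF2 and KDM1A as checks of the labels, and of each further list up to 3 genes past the adjusted p with the largest absolute log2 fold change; the promoter motifs were chosen after the values were seen.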

Additional observations from a re-analysis of the deposited data

How the results depend on the processing

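The 22 members called with GSK-LSD1 numbered 20 in DESeq2 and under the replicate block (PMVK and SREBF2 were lost), and 23 without the low-count filter. Of all genes, 984 of 25498 were higher in DESeq2, 1443 of 16059 under the block and 1605 of 25498 without the filter. The replicate block left 18 members with the fold limit and a median of 0.79 for GSK-LSD1, and 0 members and a median of 0.07 for EBF2-OE. To compare numbers between groups, the log2 difference of the higher over the lower numbered library was taken per gene in each group. Its Pearson correlation over all genes was 0.333 for Vector with EBF2-OE and -0.030 for Vehicle with GSK-LSD1. Over the members it was 0.548 and -0.517. Each value rests on 2 pairs of libraries, and nothing states that a number marks a shared culture. For Vector against Vehicle no paired fit was made, because these groups share only number 2.

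Leaving out 1 library moved the members' median log2 fold change between -0.049 and 0.13 for EBF2-OE and between 0.43 and 0.55 for Vector against Vehicle. For Vector against Vehicle it moved the members called between 0 and 21, and with the fold limit between 0 and 15. INSIG2 in Vector against Vehicle lay between -0.25 and 0.32 on the log2 scale when 1 library was left out. The interaction had 14 members in DESeq2, 17 without the low-count filter and 0 to 5 when 1 library was left out. The causes were not tested. With 2 libraries a group, effects of the size of the members' smaller differences are at the limit of detection. For EBF2-OE against Vector, larger effects could go uncalled as well.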
